A study of Homo sapiens with 2 samples.

Results

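Aminoacyl-tRNA synthetase genes were examined for binding of KDM1B in MDA-MB-231 cells, an established triple-negative breast cancer line. The group was a fixed list of 36 genes out of 19974 protein-coding genes on chromosomes 1 to 22 and X, taken by symbol. The group was chosen with earlier results of these data known. It comprised 20 genes whose enzymes work in the cytosol and 16 whose symbols end in 2 and whose enzymes work in mitochondria. KDM1B (LSD2) is a histone lysine demethylase described along the bodies of transcribed genes. A KDM1B fused to 3 FLAG tags was stably expressed in them from pOZ, a retroviral vector. The data were 1 library precipitated with an anti-FLAG antibody (ChIP) and 1 library of input DNA, both from these tagged cells, and the authors' list of 78536 ChIP over input peaks with a log2 ratio for each. Untagged cells are not among the libraries used here, so signal of the antibody alone has no control. Each group was 1 library: replicate error cannot be given, differences between gene groups are described and not tested, and sequencing depth is unknown.

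Aminoacyl-tRNA synthetases join each amino acid to its tRNA, the step that fixes the genetic code in protein synthesis. Most amino acids are served by separate nuclear genes for the cytosolic and the mitochondrial enzyme, while GARS1 and KARS1 each encode enzymes for both compartments. Several cytosolic synthetases are held together with scaffold proteins in the multi-synthetase complex. Many cytosolic synthetase genes are known targets of ATF4, the transcription factor of the amino acid response, whereas mitochondrial synthetases serve the translation of the few proteins encoded by mitochondrial DNA.

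KDM1B peaks covered large parts of many cytosolic synthetase genes and much less of most mitochondrial ones. The median share of the gene span under peaks was 62.5% in the 20 cytosolic genes (quartiles 24.1 and 75.6%, range 0.95 to 97.0%). In the 16 mitochondrial genes it was 11.5% (quartiles 4.94 and 29.3%, range 0 to 59.1%), and over all protein-coding genes it was 1.52%. Peaks covered 50% or more of the span in 11 of 20 cytosolic genes and in 1 of 16 mitochondrial genes, against a background of 7.28% of all protein-coding genes. A cover of 25% or more was reached by 15 cytosolic and 6 mitochondrial genes, against 16.8% of all protein-coding genes. The groups overlapped, since YARS2, EARS2 and CARS2 lay above the lowest 7 cytosolic genes. With only the 39282 peaks at or above the median log2 ratio, the medians were 28.8% in cytosolic and 3.24% in mitochondrial genes.

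**Figure D1:**
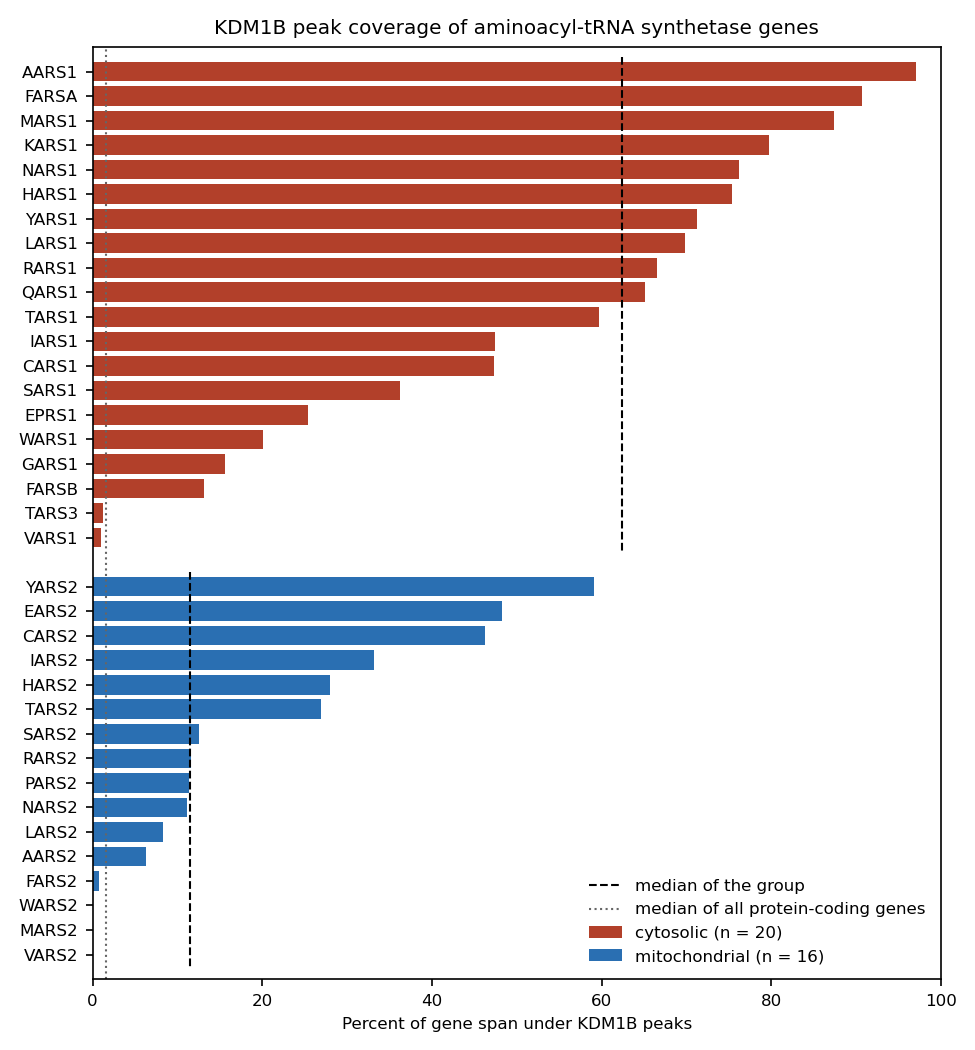
Percent of the gene span under KDM1B peaks for each of the 20 cytosolic (above) and 16 mitochondrial (below) synthetase genes. Dashed lines mark the group medians of 62.5% and 11.5%, and the dotted line the median of all protein-coding genes, 1.52%.

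Counted as peaks, the groups lay closer together than by cover. A peak midpoint fell inside the gene or at most 5 kb from it in 33 of the 36 genes, all 20 cytosolic and 13 of 16 mitochondrial, against 67.5% of all protein-coding genes. With peaks at or above the median ratio alone, 19 of 20 cytosolic and 12 of 16 mitochondrial genes had one, against 55.7% of all protein-coding genes. With peaks of log2 ratio 4 or more, 8 cytosolic and 5 mitochondrial genes had one, against 26.1%. Cytosolic genes had a median of 10.5 peaks (range 1 to 32) and mitochondrial genes 6.5 (range 0 to 25), against 2 for all protein-coding genes. Per 10 kb of gene and flanks, the medians were 2.71 peaks in cytosolic, 1.09 in mitochondrial and 0.382 in all protein-coding genes. Among the 19 cytosolic and 8 mitochondrial genes of 10 to 100 kb, both medians were 10 peaks, while the medians of cover were 59.7% and 19.8%. After joining peaks within 1 kb of each other, the medians were 4.5 and 4 peaks.

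Peaks of the cytosolic genes had a larger median width than those of the mitochondrial genes, while the median ratios were close. Median widths were 986 bp for the 246 peaks of cytosolic genes, 899 bp for the 133 of mitochondrial genes and 804 bp for all peaks on these chromosomes. The upper quartiles were 1596 bp for cytosolic, 1347 bp for mitochondrial and 1046 bp for all peaks. Of the cytosolic peaks, 14 were 5 kb or wider, or 5.69%, against none of the mitochondrial peaks and 1.42% of all peaks. They lay at 9 of the 20 cytosolic genes, against 4.19% of all protein-coding genes. For peaks inside genes alone, median widths were 1011.5 bp in cytosolic, 931 bp in mitochondrial and 838 bp in all protein-coding genes. Of these inside peaks, 6.25% in cytosolic and 0% in mitochondrial genes were 5 kb or wider, against 1.74% in all protein-coding genes. The log2 ratio had a median of 3.02 for cytosolic, 3.07 for mitochondrial and 2.99 for all peaks. No peak of 5 kb or more in the group had a log2 ratio under 2.97, and only 1, at 4.75 in CARS1, was above 4.

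**Figure D2:**
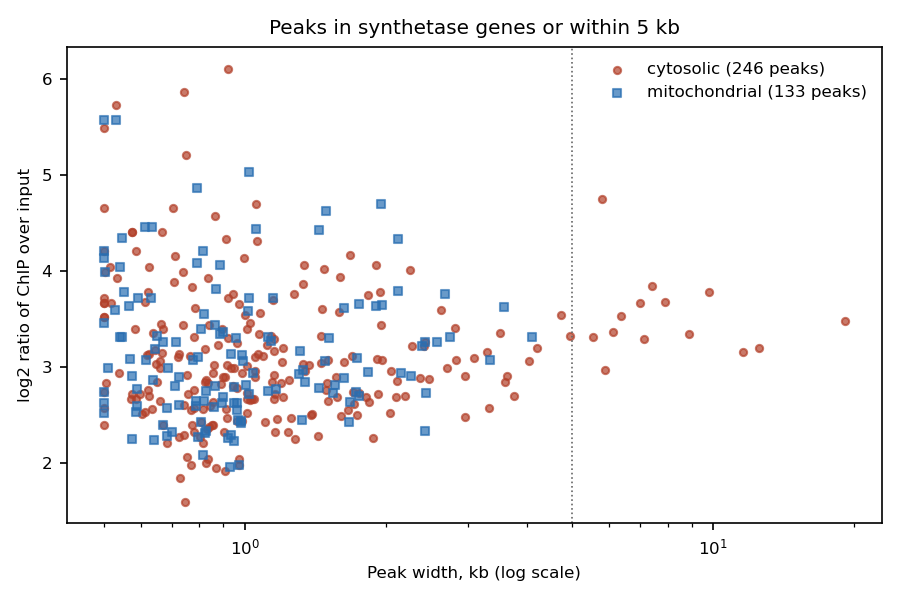
Width in kb (log scale) against the log2 ratio of ChIP over input for the 246 peaks of cytosolic and 133 peaks of mitochondrial synthetase genes, by midpoint in the gene or within 5 kb. All 14 peaks to the right of the dotted line at 5 kb belong to cytosolic genes.

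AARS1, the cytosolic alanyl-tRNA synthetase gene, was the most covered of the group. It spans 37.2 kb on the minus strand (chr16:70252298-70289506, hg38), and 97.0% of it lay under peaks, a share that 0.300% of all protein-coding genes reached. Its body was taken up by a peak of 19.1 kb with a log2 ratio of 3.48 (chr16:70253843-70272979), one of 12.6 kb with 3.20 (chr16:70273103-70285665) and one of 3.75 kb with 2.71 that ran over the start site. In the 20 kb beyond each end of the gene 15.2% was covered. The neighbours EXOSC6 and DDX19B were covered over 27.0 and 30.4% of their spans.

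FARSA and FARSB encode the 2 kinds of subunit of the same cytosolic phenylalanyl-tRNA synthetase and stood far apart. FARSA, 11.2 kb on chromosome 19, was covered over 90.7%, with a peak of 9.81 kb and a log2 ratio of 3.78 over most of the gene (chr19:12922144-12931949). FARSB, 89.2 kb on chromosome 2, was covered over 13.1%. It had more peaks than FARSA, 14 against 5, but none wider than 2.05 kb, with log2 ratios of 1.95 to 4.65. Its mitochondrial counterpart FARS2, with 522 kb the longest gene of the group, had 6 peaks and 0.784% cover.

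The 7 genes of the multi-synthetase complex all had peaks over 25% or more of their spans, and 5 of them over 50% or more. Their median cover was 66.6%, against 47.3% in the 13 cytosolic genes outside the complex. Of those 13, 8 reached 25% and 6 reached 50%, against 16.8 and 7.28% of all protein-coding genes. Cover ranged from 25.4 to 87.4% in the complex and from 0.949 to 97.0% in the cytosolic genes outside it, so the groups overlapped. MARS1, the methionyl enzyme gene, had 87.4% cover from 11 peaks, 3 of them 5.56 to 6.98 kb wide. Its span overlaps that of DDIT3, a stress-response transcription factor gene with 80.7% cover, and the last wide peak (chr12:57512182-57517737) ran into both. ARHGAP9, which also overlaps MARS1, was covered over 9.11%. KARS1, the lysyl enzyme gene, had 79.7%, with a peak of 11.6 kb and a log2 ratio of 3.16 (chr16:75628074-75639653). Its neighbour ADAT1, which encodes a tRNA adenosine deaminase, was covered over 88.0%, and TERF2IP on its other side over 4.91%.

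The other complex members differed in how the cover was made up. LARS1, the leucyl enzyme gene of 69.6 kb, held 30 peaks and 69.9% cover, with adjacent peaks of 7.42 and 7.11 kb. RARS1, the arginyl enzyme gene, had 66.6% from 12 peaks. In QARS1, the glutaminyl enzyme gene and with 8.83 kb the shortest of the cytosolic genes, 11 peaks gave 65.2%, but 58.7% of the 20 kb beyond each end was covered as well. The isoleucyl enzyme gene IARS1 had the most peaks of all, 32 over 83.5 kb, none over 4.74 kb, and 47.4% cover. EPRS1, which encodes a fused glutamyl- and prolyl-tRNA synthetase, had 23 peaks, the widest 2.48 kb, and the lowest cover of the complex, 25.4%.

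Among the other cytosolic genes, NARS1 (asparaginyl) and HARS1 (histidyl) had 76.2 and 75.4% of their spans under peaks, and YARS1 (tyrosyl) 71.2%. NARS1 reached this with 10 peaks of at most 3.50 kb, HARS1 with 4 peaks, of which the widest were 8.89 and 6.11 kb. The midpoint of the peak of 6.11 kb lay beyond the 3′ end, and the neighbour DND1 was covered over 100% of its span and WDR55 over 57.7%. TARS1, the threonyl enzyme gene, had 59.7% from 14 peaks, with log2 ratios of 2.05 to 2.85, all under the median of all peaks. Its paralog TARS3 had 2 peaks and 1.18% cover.

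The 6 genes with the strongest peaks ranged in cover from 15.6% in GARS1 to 69.9% in LARS1. CARS1, the cysteinyl enzyme gene, held 19 peaks and 47.3% cover. Its highest log2 ratio, 6.10, was the maximum of the group (chr11:3004089-3005012), followed within the gene by 5.72 and by 4.75 in the peak of 5.78 kb. GARS1, the glycyl enzyme gene, had 10 peaks, a highest ratio of 5.86 (chr7:30629343-30630087) and 15.6% cover. CARS2 and EARS2, mitochondrial cysteinyl and glutamyl enzyme genes, both reached 5.57, in EARS2 with a peak beyond its 3′ end, LARS1 5.49 and SARS1, the seryl enzyme gene, 5.21. All of these values but the 4.75 were whole multiples of a step of 2.64 shared by the linear ratios, a form seen in 11.1% of the group's peaks and in 12.4% of all peaks, and they came from peaks narrower than 1 kb. The input reads behind them are unknown.

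No peak midpoint lay in the gene or within 5 kb at 3 of the 36 genes, all mitochondrial. Among all 19974 protein-coding genes, 6489 had none. WARS2, the mitochondrial tryptophanyl enzyme gene of 109 kb, had none, and the nearest midpoint was 18.4 kb away. MARS2, the mitochondrial methionyl enzyme gene of 3.03 kb, had none either, and a peak with a log2 ratio of 2.25 lay 9.29 kb away. VARS2, the mitochondrial valyl enzyme gene, had none, and the nearest midpoint was 325 kb away. Its cytosolic counterpart VARS1 had 1 peak, across an end of the gene, with a log2 ratio of 3.44 and 0.949% cover. VARS1 and VARS2 both lie in the major histocompatibility region of chromosome 6. Of the 172 protein-coding genes that start between 28.5 and 33.5 Mb there, 19 had a peak in the gene or within 5 kb, against 549 of the 877 (62.6%) on the rest of the chromosome. The part of this region in the low values of the VARS genes was not tested.

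For 13 amino acids the list holds a cytosolic gene ending in 1 and a mitochondrial gene with the same stem. The cytosolic gene had the larger share under peaks in all 13 pairs. Other genes of the same amino acid were not paired, and some went the other way. EPRS1 (25.4%) had less cover than the glutamyl gene EARS2 (48.3%), and TARS3 (1.18%) less than TARS2 (27.0%). EPRS1 had more than the prolyl gene PARS2 (11.4%), and FARSA (90.7%) and FARSB (13.1%) had more than FARS2 (0.784%). Over the 13 pairs the median difference was 32.8 percentage points, against 50.9 between the medians of all 20 and 16 genes. The largest differences were between AARS1 (97.0%) and AARS2 (6.33%), MARS1 (87.4%) and MARS2 (0%), NARS1 (76.2%) and NARS2 (11.1%), and LARS1 (69.9%) and LARS2 (8.30%). The smallest were 1.10 points between CARS1 and CARS2 and 0.949 points between VARS1 and VARS2. By peaks per 10 kb the cytosolic gene was higher in 10 of the 13 pairs. It was lower for HARS1 (1.46) than HARS2 (2.80), for YARS1 (3.07) than YARS2 (3.62), and for CARS1 (2.86) than CARS2 (3.04).

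The mitochondrial genes with the most cover were YARS2, EARS2 and CARS2. YARS2, the tyrosyl enzyme gene of 9.35 kb, had 59.1% under 7 peaks, one of them with a log2 ratio of 5.03. EARS2 had 48.3% from 13 peaks, and 34.2% of the 20 kb beyond each end was covered. CARS2 had 46.2% from 25 peaks, the most of any mitochondrial gene, with its widest at 4.11 kb. IARS2 followed with 33.2%, HARS2 with 28.0% and TARS2 with 27.0%. The remaining 10 were at 12.6% or lower.

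Within classes of gene length the cytosolic median was above the mitochondrial one in each class that holds both. In the class of 20 to 50 kb, the 9 cytosolic genes had a median of 66.6% and the 2 mitochondrial genes 37.6%, against 4.49% for 4733 protein-coding genes. In the class of 10 to 20 kb the medians were 77.6% in 4 cytosolic and 6.33% in 3 mitochondrial genes, against 4.63%. For genes under 10 kb they were 65.2% in QARS1, the only cytosolic gene there, and 19.7% in 4 mitochondrial genes, against 0%. In the class of 50 to 100 kb they were 36.4% in 6 cytosolic and 33.2% in 3 mitochondrial genes, against 2.48%, so the groups lay close there. The 4 genes over 100 kb were all mitochondrial, with a median of 4.54% against 0.615% for all protein-coding genes of that length.

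Cover was lower beyond the gene borders than inside in most cytosolic genes. The median share under peaks in the 20 kb beyond each end was 9.73% for cytosolic genes, against 62.5% inside. It was 7.08% for mitochondrial genes, against 11.5% inside, and 2.41% for all protein-coding genes, against 1.52% inside. The gene was more covered than its flanks in 18 of 20 cytosolic genes, all but TARS3 and VARS1, and in 10 of 16 mitochondrial genes, against 40.5% of all protein-coding genes. At the 5 kb limit of the counts, FARSA, RARS2, QARS1 and FARSB each had a peak 4.54 to 4.77 kb away that was counted, and CARS2, MARS1 and HARS1 each had one 5.11 to 5.37 kb away that was not.

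Strand was known for 30 of the 36 genes, those with a promoter entry in the RefSeq table of GRCh38.p14. Over the 16 cytosolic genes among them the mean cover was lower at the start of the gene than further in. Each gene was cut into 10 equal parts from its 5′ end. Mean cover was 33.3% in part 1, 32.8% in part 2 and 60.9% in part 3. It was 71.4% in part 8, 69.6% in part 9 and 55.7% in part 10. It was 13.6% in the 5 kb before the start and 34.7% in the 5 kb after the end. Single genes differed from the mean, and EPRS1 had its highest cover, 53.4%, in part 1. In the 14 mitochondrial genes the parts ranged from 13.4 to 30.3%, and over 14400 protein-coding genes of 3 kb or more from 9.51 to 14.1%. The 3′ side of the gene was more covered than the 5′ side in 11 of the 16 cytosolic genes and in 6 of the 12 mitochondrial genes with a peak inside, against 52.9% of all protein-coding genes with a peak inside. WARS2 and MARS2 had no cover on either side. The cytosolic exceptions were EPRS1, AARS1, NARS1, FARSB and IARS1.

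**Figure D3:**
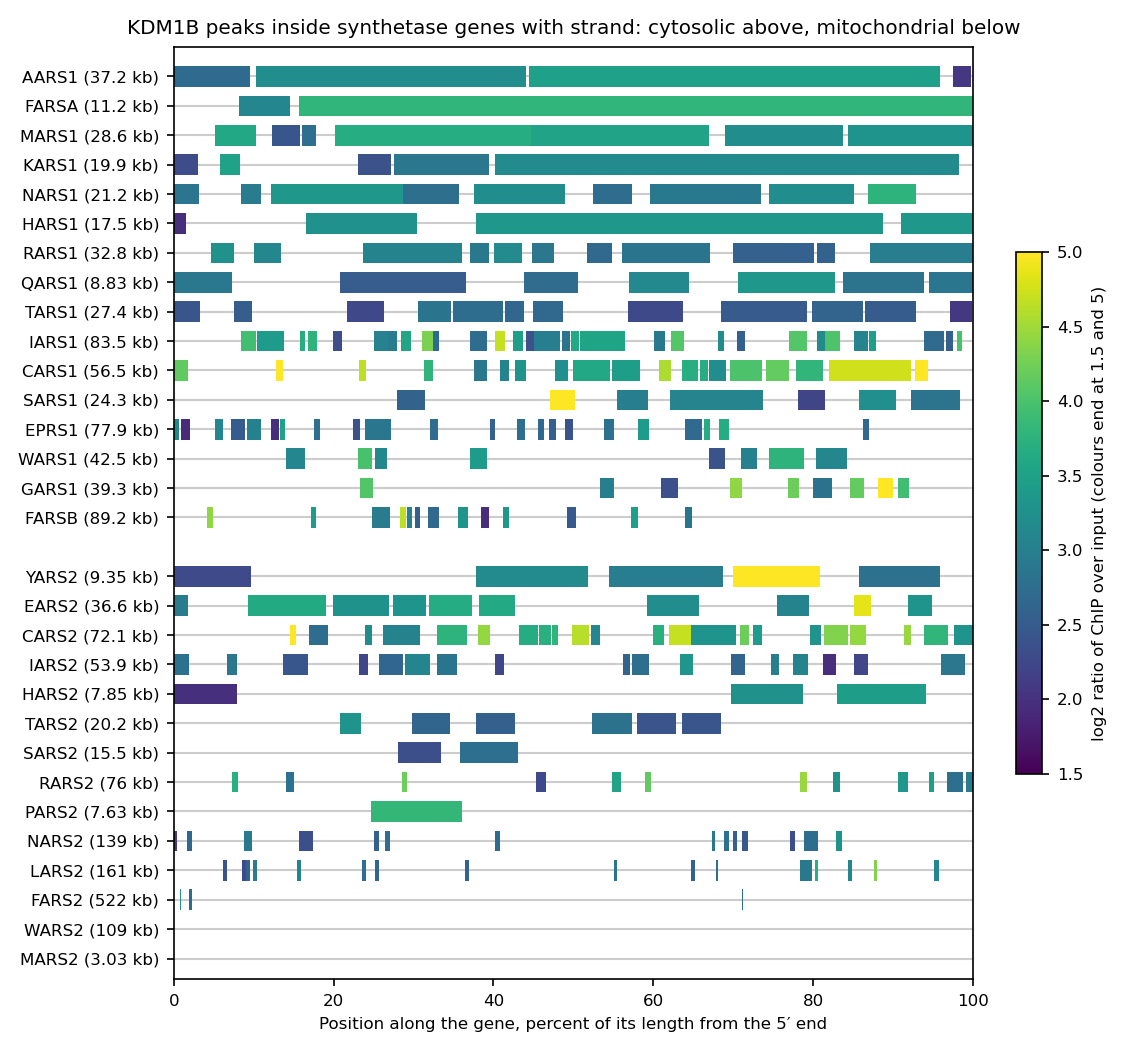
Peaks inside the 30 synthetase genes with strand, drawn along each gene from its 5′ end in percent of its length, with 16 cytosolic genes above and 14 mitochondrial genes below. Colour gives the log2 ratio of ChIP over input. Long unbroken peaks fill AARS1, FARSA, MARS1, KARS1 and HARS1, while WARS2 and MARS2 have none.

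**Figure D4:**
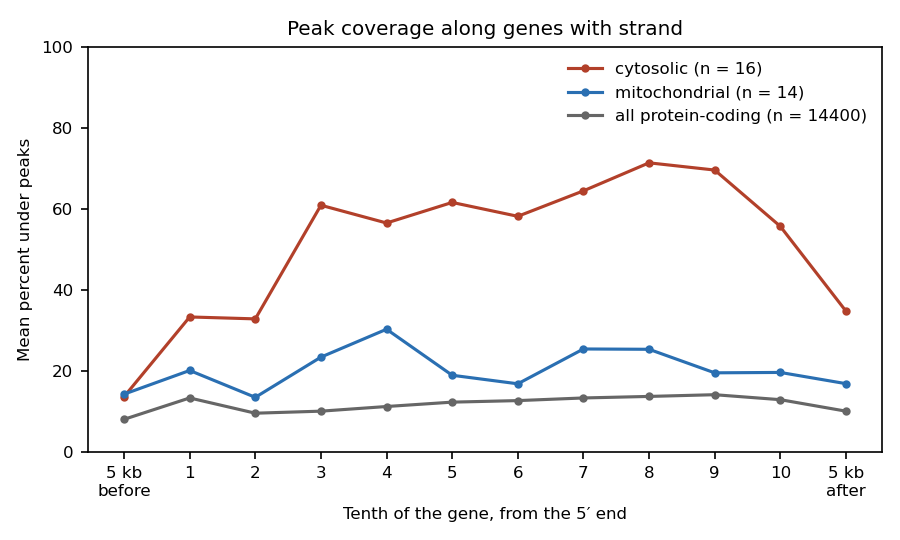
Mean percent under peaks in 10 equal parts of the gene and in the 5 kb on either side, for 16 cytosolic, 14 mitochondrial and 14400 protein-coding genes with strand. The cytosolic line lies near 33% in the outermost 5′ parts and reaches 71.4% in part 8.

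At the gene ends the group stood closer to other genes. A peak midpoint lay within 1 kb of either end in 13 of 20 cytosolic and 9 of 16 mitochondrial genes, against 41.9% of all protein-coding genes. Among genes with strand, the 5′ end had such a peak in 8 of 16 cytosolic and 6 of 14 mitochondrial genes, against 36.5%, and the 3′ end in 4 of each, against 17.4%. A listed start site lay under a peak in 8 cytosolic and 6 mitochondrial genes, against 31.4% of all protein-coding genes with strand. The log2 ratios of these start-site peaks ran from 1.99 at HARS1 and HARS2 to 4.14 at CARS1. With only the peaks at or above the median ratio, gene ends had a peak in 5 of 20 cytosolic and 2 of 16 mitochondrial genes, against 16.5% of all protein-coding genes, so the group as a whole, at 7 of 36, was near the background. With peaks of log2 ratio 4 or more, 1 cytosolic and 0 mitochondrial genes had one at an end, against 3.56%.

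HARS1 and HARS2 stand head to head on chromosome 5 and shared 2 peaks. Their start sites are separated by 84 bases, and a peak of 972 bp with a log2 ratio of 1.99 (chr5:140691103-140692075) covered both. The sequence between the start sites (chr5:140691371-140691454, plus strand, RefSeq, GRCh38.p14) is shown because the same peak covered the start sites of both genes. Capitals mark CCGGAAG, a motif of ETS transcription factors, or its complement on the other strand.
HARS1 to HARS2: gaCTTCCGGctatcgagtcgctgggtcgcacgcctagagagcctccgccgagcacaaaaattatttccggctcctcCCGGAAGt
On the HARS1 side the body of the gene was covered over 75.4%, and on the HARS2 side over 28.0%. The other shared peak, of 2428 bp with a log2 ratio of 3.26, lay inside HARS1 within 5 kb of HARS2.

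Promoter windows from 250 bases before to 50 after each listed start site were searched on both strands for 3 motifs. In CARS1 a match of CCGGAAG overlapped one of GGGCGG. TGATGNAA, the amino acid response element bound by ATF4, was found in windows of 7 of the 16 cytosolic genes and 1 of the 14 mitochondrial genes. By window, it was in 33.3% of 21 cytosolic, 5.56% of 18 mitochondrial and 2.70% of 22132 protein-coding windows. CCGGAAG was in 52.4% of the cytosolic, 44.4% of the mitochondrial and 12.8% of all protein-coding windows. GGGCGG, the GC box, was in 61.9, 77.8 and 56.3%. Windows of 1 gene can overlap and repeat a match, and HARS1 and HARS2 share their CCGGAAG matches. By gene, CCGGAAG was in 9 of 16 cytosolic and 7 of 14 mitochondrial genes. Of 15812 protein-coding genes, 570 held TGATGNAA and 2607 held CCGGAAG. A match is a description of the letters and not a binding site.

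The 30 bases around each TGATGNAA match are shown, on the strand of the gene and with the match in capitals, because more cytosolic than mitochondrial windows held this motif. They come from RefSeq, GRCh38.p14, and lie at chr16:70289675-70289704 (AARS1), chr11:3057407-3057436 (CARS1), chr18:57621804-57621833 (NARS1), chr5:33440956-33440985 (TARS1), chr7:30594834-30594863 (GARS1), chr9:92293692-92293721 (IARS1), chr12:57488053-57488082 (MARS1) and chr12:32756076-32756105 (YARS2). TARS1, GARS1 and MARS1 are on the plus strand and the others on the minus strand.
AARS1: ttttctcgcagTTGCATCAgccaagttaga
CARS1: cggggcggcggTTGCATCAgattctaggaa
NARS1: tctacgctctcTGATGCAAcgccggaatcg
TARS1: gcgcctttcgaTTGCATCAgctggtccagc
GARS1: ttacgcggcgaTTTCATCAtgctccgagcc
IARS1: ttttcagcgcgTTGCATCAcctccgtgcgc
MARS1: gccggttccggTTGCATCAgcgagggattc
YARS2: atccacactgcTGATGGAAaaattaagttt
The stretches of AARS1, CARS1, NARS1 and TARS1 lay under a start-site peak, in AARS1 over 24 of its 30 bases, with log2 ratios of 2.71, 4.14, 2.87 and 2.43. Those of GARS1, IARS1, MARS1 and YARS2 lay under no peak. Of the 7 cytosolic genes with a match, cover ranged from 15.6% in GARS1 to 97.0% in AARS1.

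The upstream sequence of AARS1 is given as that of the most covered gene. It holds 200 bases before the start site (chr16:70289507-70289706, minus strand, RefSeq, GRCh38.p14), of which 192 lay under the peak of 3.75 kb. Capitals mark the TGATGNAA match on the other strand.
AARS1: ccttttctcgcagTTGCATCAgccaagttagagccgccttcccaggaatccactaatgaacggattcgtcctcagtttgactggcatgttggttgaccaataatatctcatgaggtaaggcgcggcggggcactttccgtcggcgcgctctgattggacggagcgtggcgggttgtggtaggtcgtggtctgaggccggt

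The enzymes fall into class I and class II by the fold of their catalytic domain, a division that cuts across the compartments. Class I genes had a median cover of 46.2% (19 genes) and class II genes 26.2% (18 genes), with EPRS1 in both classes. Peaks covered 50% or more of the span in 6 genes of each class, against 7.28% of all protein-coding genes, whose median cover was 1.52%.

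Other genes of tRNA charging and maturation had less cover than the cytosolic synthetases. Of 23 such genes, 21 had a peak in the gene or within 5 kb, against 67.5% of all protein-coding genes. Their median cover was 11.9%, against 11.5% in the mitochondrial synthetases and 1.52% over all protein-coding genes. Cover of 50% or more was reached by 5 of them, against 7.28% of all protein-coding genes. These were ELAC2 (76.2%), a nuclease that trims tRNA 3′ ends, GATC (75.3%), a subunit of the mitochondrial glutaminyl-tRNA amidotransferase, AIMP2 (64.3%), a scaffold of the multi-synthetase complex, the editing factor gene AARSD1 (52.5%) and XPOT (50.4%), which encodes the exporter of tRNA from the nucleus. The other scaffold genes, EEF1E1 and AIMP1, had 11.9 and 1.87%, and the other amidotransferase genes, QRSL1 and GATB, 4.99 and 0.854%. ELAC1 and SEPSECS, a gene of selenocysteine charging, had no peak.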

How the data were processed

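Chromatin from tagged MDA-MB-231 cells was precipitated through the FLAG tag, per the labels' protocols. The submitters' processing notes name Bowtie2 2.2.9, Trim Galore 0.4.5 and the build hg38. The program that called peaks, its threshold and any joining were not given in the sources used here. Each line of the deposited list holds a peak's position and its log2 ratio (ChIP over input). That the values are log2 was read from the values: in the highest 1%, 97.7% of the linear ratios were whole multiples of 2.64 within a tolerance of 1e-06. The ratio is the authors' value, used only to describe peaks within this list. Depth is unknown, so no counting error is given. Peak positions are printed as deposited, and the base their starts count from is unknown.

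Spans were those of RefSeq genes on GRCh38.p14, where all 36 genes matched by symbol, and strand and promoter sequence from a RefSeq table that holds 30 of them. The files' hg38 and this assembly share chromosome coordinates. A peak was counted by its midpoint in the gene or within 5 kb, and cover was the share of the span under any peak. All 19974 protein-coding genes gave the background. Tables were made with Python 3.11.15 and pandas 2.3.3, and the counting was tested on simulated peaks. No test was made, since each group was 1 library. The genes described in full followed a rule: no peak, the highest cover, peak count or ratio, shared peaks, and the largest pair differences. The 50% and 25% limits and the width and length-class descriptions were chosen after values had been seen. The members and lists were chosen with earlier results of these data known. Alternatives changed the distance, the peaks used, the overlap, the joining of peaks and the genes compared.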

Additional observations from a re-analysis of the deposited data

How the results depend on the processing

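Of 42 alternative values for the 6 main results, 12 moved by over 1.5 times and none reversed, though one difference came to 0. The other 30 stayed within that range, except that peaks per 10 kb, in another unit, are read by direction alone (2.71 in cytosolic, 1.09 in mitochondrial genes). Those 12 came from fewer or merged peaks or from other genes compared. With only peaks of log2 ratio 4 or more, 13 of the 36 genes had a peak in the gene or within 5 kb after 33 (26.1% of all protein-coding genes), 1 after 22 had one within 1 kb of an end (3.56% of all), and median cover and median peaks per gene were both 0. With peaks at or above the median ratio, median cover was 14.8% after 30.6%, median peaks 3.5 after 10, and gene ends with a peak 7 after 22, near the 16.5% of all protein-coding genes. The cytosolic minus mitochondrial difference in median cover was then 25.5 points after 50.9. Joining peaks within 1 kb left a median of 4 peaks. Over the 13 pairs the median differences were 32.8 points of cover and 7 peaks, after 4 peaks between the group medians. Among genes of 10 to 100 kb, chosen after seeing the data, the difference in median peaks was 0, and in cover 40.0 points. Leaving out whole multiples of the step or the VARS genes, also added later, gave differences in cover of 51.2 and 53.5 points. No paired analysis was possible because each group holds 1 library. Without read counts, the error of single ratios and of peak borders is unknown.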
